A study of Mus musculus with 9 samples.

Results

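In the mouse heart 67 genes had their lowest signal at 7 days of age, below both the newborn and the adult level, and they are described here out of 19938 genes measured. Hearts of C57BL/6 mice, an inbred laboratory strain with no treatment or genetic change named, were collected at 24 hours, 7 days and 10 weeks of age, and 3 arrays were run for each age. Total RNA of the cardiac muscle was read on Affymetrix Mouse Gene 1.0 ST arrays, which give each gene a log2 signal from a set of short probes, so that a difference of 1 is a change of 2-fold. A gene belonged to the group when its 7-day mean lay at least 0.4 (log2) below the 24-hour mean and at least 0.4 below the 10-week mean, its 10-week mean was at least 6, and its highest 7-day array lay below the lowest of the other 6 arrays. Of the 19938 genes 475 met the first condition, 80 of these the second, 71 the floor at 10 weeks and 69 the condition on single arrays. Myh7 and Slc2a1 were dropped by name, which left 67 genes, or 0.336% of those measured. The same rule turned upside down, with the 7-day level above both other ages, chose 192 genes, and in 6102 genes (30.6%) the 7-day mean was the lowest of the 3 at any distance.

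The rule used the 7-day against 24-hour and the 10-week against 7-day differences, so both are given below as descriptions without a test. The difference between the outer ages, 10 weeks against 24 hours, was no condition of the rule and was tested for every gene, although both means entered the rule and the floor at 10 weeks favours genes that are high in the adult. Whether the 3 arrays of an age hold separate animals is not stated in the labels, and p-values then measure only the spread between these samples, which may be technical. A signal in whole tissue cannot tell fewer cells of a type from less RNA per cell.

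The first postnatal week and the weeks up to weaning change what the heart burns, how it divides and how it is exposed to hormones. The newborn leaves a supply of glucose, lactate and amino acids through the placenta and begins to live on fat-rich milk, and heart muscle cells turn from glycogen and lactate to fatty acids. In rodents, corticosterone in blood is high around birth, stays low through an early stretch of postnatal life in which the adrenal gland responds little to stress, and climbs again before weaning. Glucocorticoid receptors, when bound by hormone, enter the nucleus and bind DNA elements near genes such as Per1, Zbtb16, Klf15, Lcn2, Glul and the metallothioneins. Branched-chain amino acids (leucine, isoleucine and valine) are broken down in mitochondria by a transaminase, a dehydrogenase complex and a chain of further enzymes, and in mice Klf15 is known to raise the expression of several of them. Interferons, secreted on viral infection and at low level in healthy tissue, raise a common set of antiviral genes.

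The arrays were those of heart muscle. The 8 cardiomyocyte markers tested, among them Myh6 and Tnnt2, lay between 10.58 and 13.34 on every array, and none was among the 67 genes. Their mean per array was 12.26 to 12.27 at 24 hours, 12.16 to 12.24 at 7 days and 12.22 to 12.23 at 10 weeks. Other tissues differed between arrays of 1 age: Ucp1, a gene of brown fat, measured 4.30, 11.23 and 9.27 on 7-day replicates 1, 2 and 3, and 3.92 to 4.27 at the other ages. The liver gene Alb measured 7.81 on 7-day replicate 2 and 3.73 to 6.04 on the other arrays. With replicate 1 as the only 7-day array the rule chose 99 genes, 54 of them among the 67. Markers of several other cell types peaked at 7 days. Of 10 fibroblast markers 4 were called higher and none lower at 7 days than at 24 hours, and 1 was called higher and 7 lower at 10 weeks than at 7 days (limma, adjusted p under 0.05; over all genes 5.27% were called higher and 4.81% lower at the first step, and 17% and 18.9% at the second). Their mean per array was 9.58 to 9.77 at 24 hours, 10.10 to 10.44 at 7 days and 8.94 to 9.16 at 10 weeks. Of 10 endothelial markers 4 were called higher at 7 days than at 24 hours and 6 lower at 10 weeks than at 7 days, with means per array of 9.06 to 9.12, 9.27 to 9.32 and 8.94 to 9.03 in order of age. Of 7 atrial markers 1 was called higher at 7 days than at 24 hours and 6 lower at 10 weeks than at 7 days, with means per array of 9.05 to 9.69, 9.66 to 10.14 and 6.78 to 8.10 in order of age. The atrial light chain gene Myl7 measured 4.70, 8.43 and 7.52 on 10-week replicates 1, 2 and 3, so the adult arrays differed in atrial signal. The part of these tissues in the dip of the 67 genes was not tested. The Y-linked gene Eif2s3y measured 6.06 to 7.71 on the arrays of the younger ages and 2.87 to 3.30 at 10 weeks, so the sex of the animals and the adult age cannot be told apart. Xist, a transcript of the inactive X chromosome of females, measured 8.26 to 9.56 at the younger ages and 8.69 to 8.97 at 10 weeks. Both genes were thus high on every younger array, so RNA of both sexes may be mixed there. Whether these arrays hold pools of animals was not tested. The labels used here state neither the hour at which hearts were taken nor when the animals had fed.

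The first step is 7-day minus 24-hour and the second 10-week minus 7-day, and the depth of the dip is the smaller of the 2 in size. It ran from 0.40 to 1.36 with a median of 0.51. The 7-day minus 24-hour difference had a median of -0.57 and ran from -1.66 to -0.40. The 10-week minus 7-day difference had a median of 1.02 and ran from 0.42 to 3.78, and it was the larger step in 54 of 67 genes. Only 4 genes, Timp4, Kyat3, Serpina3n and Gstm1, dipped by at least 1, and 29 dipped by less than 0.5. The gap between the highest 7-day array and the nearest array of another age ran from 0.07 to 0.93. Just inside the margin were Bcat2, Mt1 and Dnajc12, whose smaller steps were 0.4005, 0.4057 and 0.4122. Just outside it were Asb2, Tfdp2 and Hecw2 at 0.3997, 0.3995 and 0.3978, and a margin of 0.3 admitted 66 further genes.

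**Figure D1:**
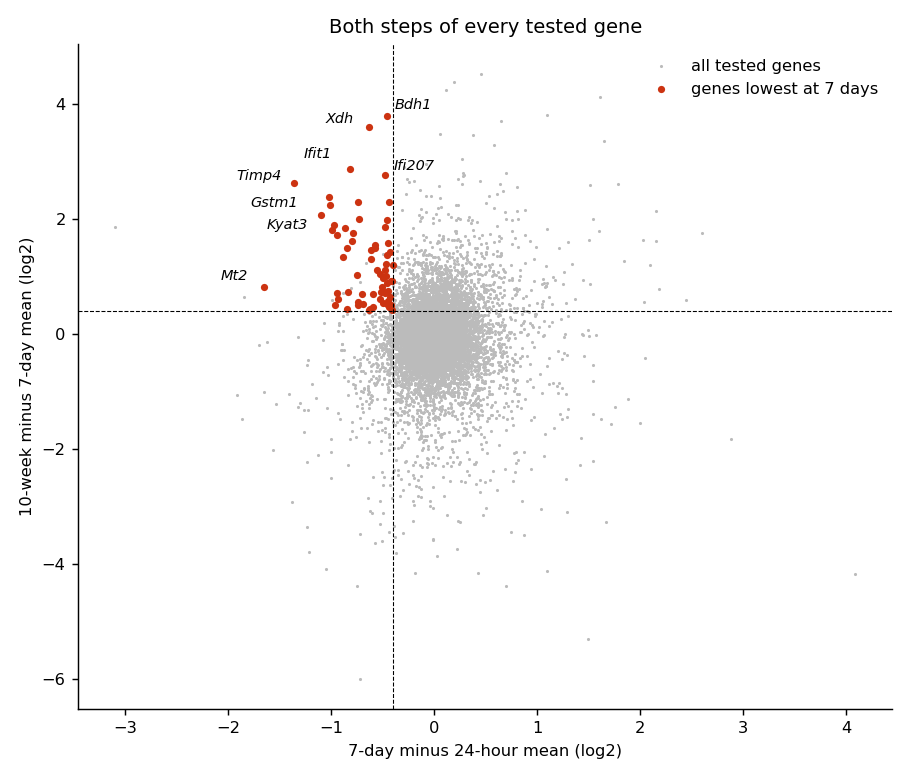
The 7-day minus 24-hour mean (horizontal axis, log2) is plotted against the 10-week minus 7-day mean (vertical axis, log2) for each of 19938 genes in grey, with the 67 genes in red and dashed lines at the 0.4 margins. The red points run from -1.66 to -0.40 across and from 0.42 to 3.78 up, and no gap separates them from the grey points at the margin. Grey points inside the corner failed another condition of the rule or, as Myh7 and Slc2a1, were dropped by name.

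Set against the newborn heart, most of the 67 genes ended higher in the adult. The rule asked for a rise of at least 0.4 after 7 days, so genes that fell from then on could not be members. The shares of other genes given below include such genes. They are no like background for the balance of higher and lower calls. At 10 weeks 43 were higher than at 24 hours, 5 were lower and 19 did not pass the threshold (limma, adjusted p under 0.05 over all genes). Among all 19938 genes 19.5% were called higher and 20.6% lower, and among the 8551 genes that meet the floor of 6 at 10 weeks the shares were 29.4% higher and 32.8% lower. The share called in either direction was 40.1% of all genes and 62.2% of those above the floor. The median difference of the 67 genes was 0.51, against 0.04 over all genes, and 13 were higher by at least 2-fold. The 10-week and 24-hour arrays did not overlap in 49 of the 67 genes (73.1%), against 48.2% of all genes and 70% of those above the floor, so that this share was near that of genes as bright in the adult. In 43 of the 49 the 10-week arrays were the higher ones, which held for 24.6% of all genes and 32.8% of those above the floor. In the other 6 they were the lower ones, against 23.6% and 37.2%. The 5 genes that fell were Mt2, Lbp, Popdc3, Per1 and Aldh5a1. Of the 67 genes 64.2% were called higher and 7.46% lower. In the sets by role described below the share called higher ran from 50% to 100%. The counts of each set are to be read beside these shares and those of all genes.

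**Figure D2:**
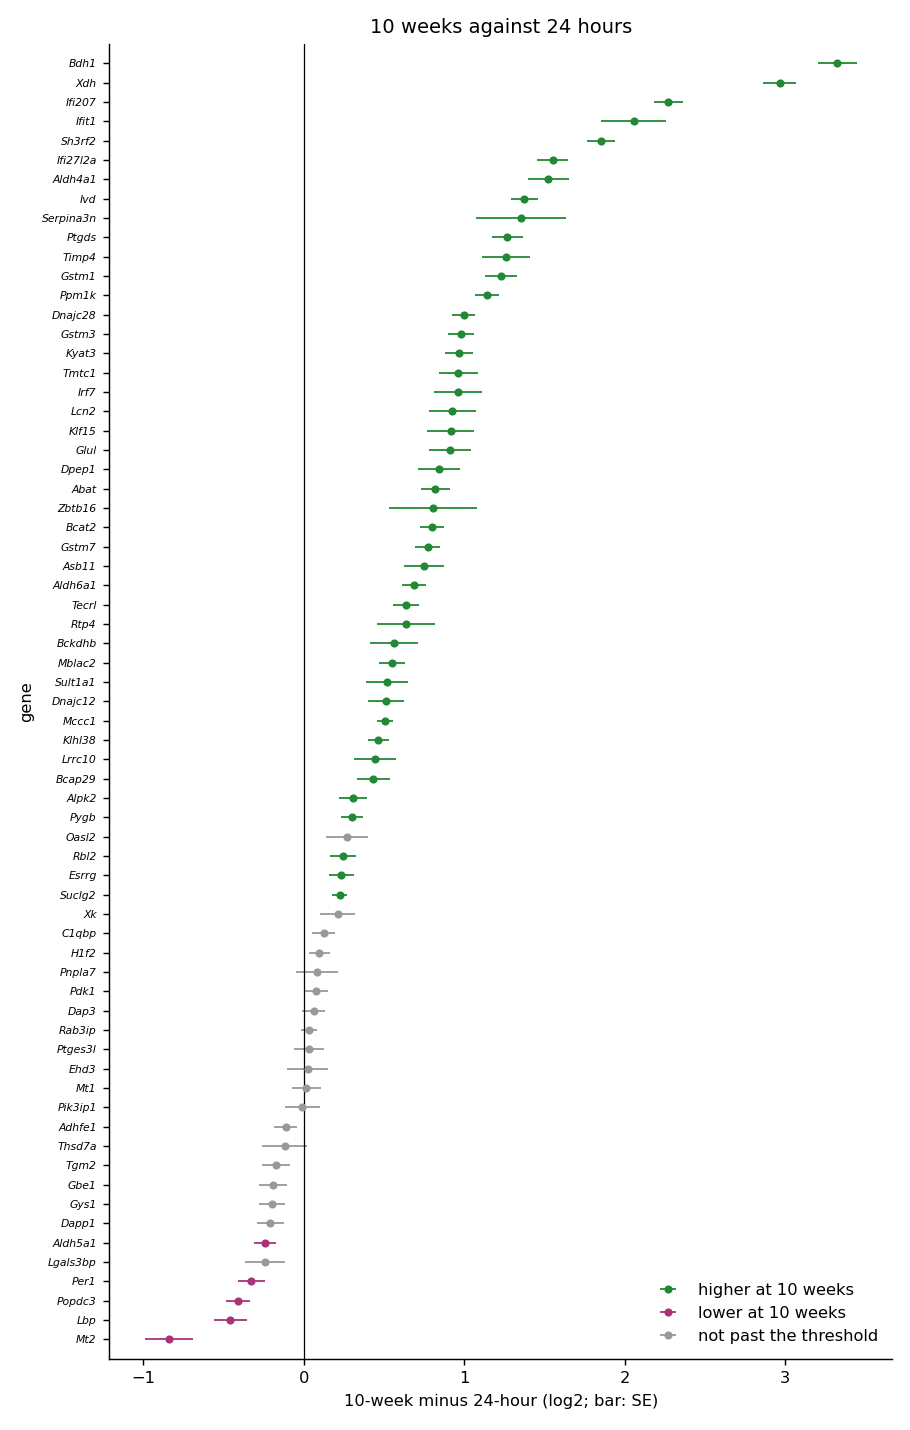
The 10-week minus 24-hour difference (log2, bar for the SE) is shown for each of the 67 genes, sorted, in green where higher at 10 weeks, purple where lower and grey where the threshold was not passed. Bdh1 stands at the top with 3.33 and Mt2 at the bottom with -0.84, and 43 genes are green, 5 purple and 19 grey.

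Secreted and matrix-related proteins formed a set of 7, of which 4 were higher at 10 weeks than at 24 hours, 1 lower and 2 not past the threshold, and Timp4 had the deepest dip of all. This inhibitor of the enzymes that digest extracellular matrix, measured 6.73, 6.73 and 6.60 at 24 hours, 5.67, 5.12 and 5.19 at 7 days, and 7.79, 8.21 and 7.85 at 10 weeks. Each age stood apart from the others, and the lowest 24-hour array lay 0.93 above the highest 7-day array. At 10 weeks it was 2.40-fold higher than at 24 hours (log2 difference 1.26 ± 0.15 SE, n = 3 arrays per age, limma adjusted p = 5.47e-05). Serpina3n, a secreted serine protease inhibitor of the acute phase response, measured 6.21, 6.36 and 5.97 at 24 hours, 5.13, 5.49 and 4.85 at 7 days, and 6.89, 7.50 and 8.21 at 10 weeks. The adult arrays were the most spread of any age for this gene, with an SD of 0.66, and all lay above the newborn ones (difference 1.36 ± 0.28, adjusted p = 0.00281). Lcn2, which encodes lipocalin 2, a secreted protein that withholds iron from bacteria, measured 6.73, 6.47 and 6.44 at 24 hours, 5.50, 5.75 and 5.48 at 7 days, and 7.40, 7.20 and 7.81 at 10 weeks. It rose at 10 weeks by 0.93 ± 0.15 relative to 24 hours (adjusted p = 0.000479).

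Ptgds, the lipocalin-type prostaglandin D synthase, measured 8.93, 9.19 and 9.11 at 24 hours, 8.57, 8.22 and 8.24 at 7 days, and 10.39, 10.32 and 10.32 at 10 weeks. The adult arrays were close together (SD 0.04) and lay 1.27 ± 0.10 above the newborn mean (adjusted p = 2.43e-06). Lbp, which encodes the lipopolysaccharide-binding protein of plasma, went the other way between the outer ages, with 7.84, 7.93 and 7.67 at 24 hours, 6.65, 7.03 and 6.86 at 7 days, and 7.32, 7.29 and 7.46 at 10 weeks. It fell by 0.46 on the log2 scale (SE 0.10, adjusted p = 0.00444), so the adult level stood between the other ages. Tgm2, which encodes the protein-crosslinking enzyme transglutaminase 2, and the membrane protein gene Thsd7a differed by -0.17 and -0.12 between 10 weeks and 24 hours and did not pass the threshold (adjusted p = 0.158 and 0.547). Of 8 liver and plasma protein markers 1 had its lowest mean at 7 days. Their mean per array was 5.14 to 5.28 at 24 hours, 4.95 to 5.91 at 7 days and 4.95 to 5.21 at 10 weeks. All 8 were highest among the 7-day arrays on replicate 2. On every array 4 of the 8 lay under the signal of the median gene (5.57), where a dip would be hard to see.

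**Figure D3:**
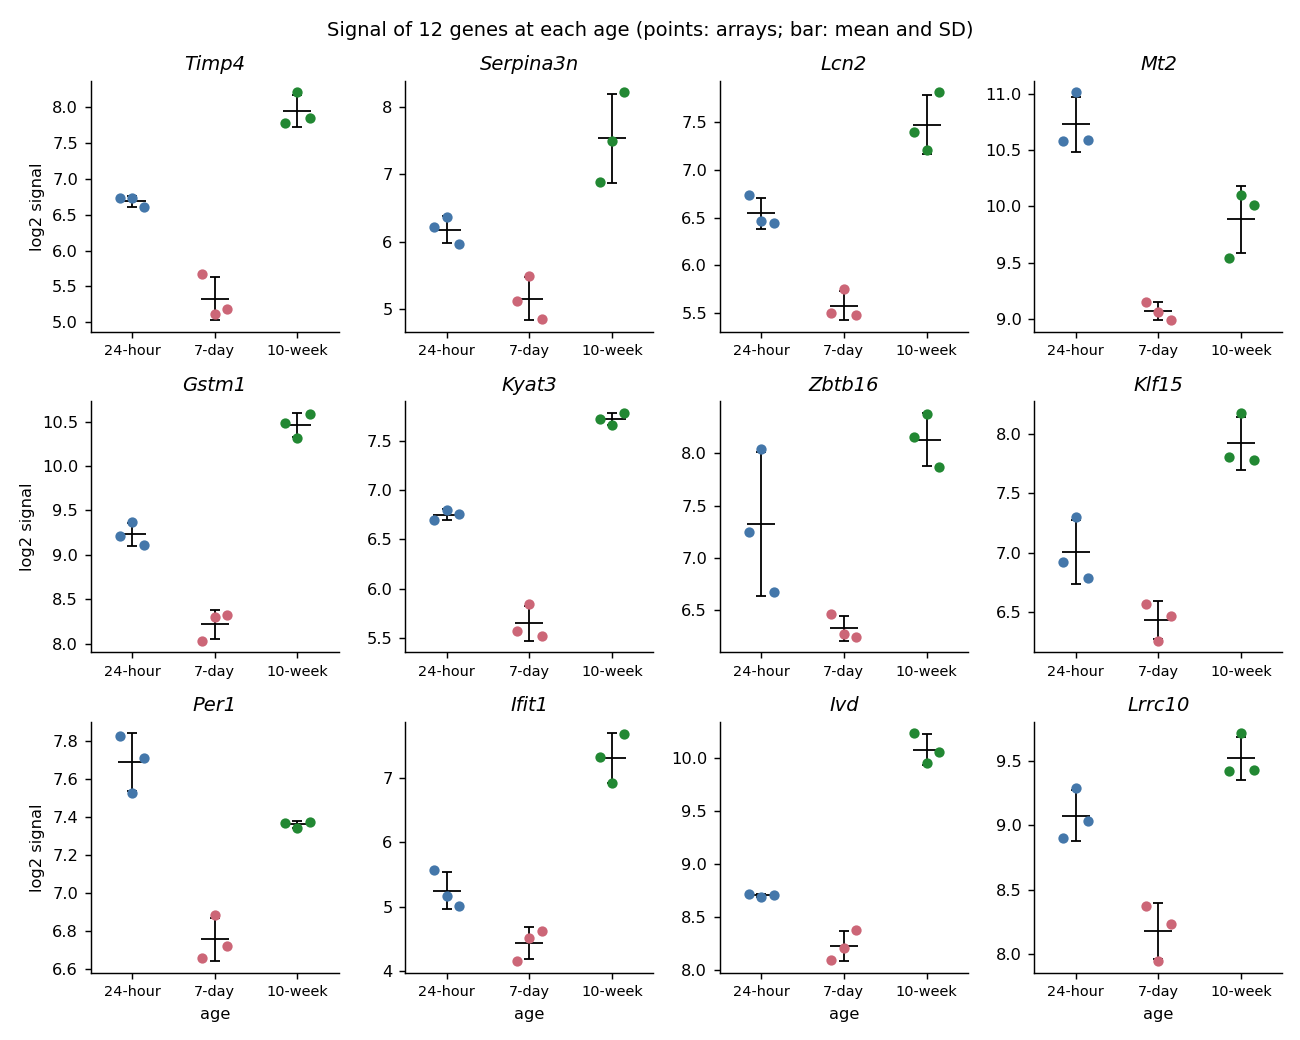
The log2 signal of 12 genes is shown at each age, with a coloured point per array in replicate order and a black bar for the mean and SD of 3 arrays. In each panel the 3 points at 7 days are the lowest, and Mt2 and Per1 have their highest points at 24 hours while the other panels have theirs at 10 weeks.

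Detoxifying enzymes and metal-binding proteins formed a second set of 7 genes, of which 5 were higher at 10 weeks than at 24 hours, 1 lower and 1 not past the threshold. Gstm1, which joins glutathione to reactive compounds, measured 9.21, 9.37 and 9.11 at 24 hours, 8.03, 8.30 and 8.32 at 7 days, and 10.49, 10.31 and 10.58 at 10 weeks. Its relatives Gstm7 and Gstm3 kept the same order of ages. Gstm7 measured 7.74, 7.96 and 7.96 at 24 hours, 6.88, 7.01 and 6.94 at 7 days, and 8.71, 8.54 and 8.73 at 10 weeks. Gstm3 measured 6.77, 6.83 and 6.77 at 24 hours, 5.78, 6.05 and 5.95 at 7 days, and 7.79, 7.64 and 7.86 at 10 weeks. The 10-week minus 24-hour differences were 1.23 ± 0.10 for Gstm1, 0.77 ± 0.08 for Gstm7 and 0.98 ± 0.08 for Gstm3 (adjusted p = 3.55e-06, 1.96e-05 and 4.48e-06). These related genes lie close together on 1 chromosome, with 1 protein-coding gene between Gstm7 and Gstm3 and 1 between Gstm3 and Gstm1. Probes may read more than 1 of them, so their values are uncertain as separate measurements. Of 20 glutathione transferase genes tested, a list written after the members were known, 3 are members. Of the other 17, 10 (58.8%) had their lowest mean at 7 days, against 30.4% of the 19871 genes outside the group. These 17 had median differences of -0.05 for 7-day minus 24-hour and 0.80 for 10-week minus 7-day. Gstm2, another relative, failed only the margin of the first step, with differences of -0.36 and 1.44. Gstm6, with differences of -0.81 and 0.81, met both margins but stayed under the floor with a highest adult array of 5.29.

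The metallothioneins Mt1 and Mt2, small cysteine-rich proteins that bind zinc and copper, are direct neighbours on the chromosome. Mt2 measured 10.58, 11.01 and 10.58 at 24 hours, 9.15, 9.06 and 8.99 at 7 days, and 9.54, 10.10 and 10.01 at 10 weeks. Its 7-day minus 24-hour difference of -1.66 was the lowest of the 67 genes, and at 10 weeks relative to 24 hours it fell by 0.84 (SE 0.15, 0.558-fold, adjusted p = 0.00102). Mt1 measured 11.19, 11.55 and 11.35 at 24 hours, 10.88, 10.91 and 11.08 at 7 days, and 11.30, 11.48 and 11.36 at 10 weeks. Its newborn and adult arrays overlapped (difference 0.02 ± 0.09, adjusted p = 0.906), and its dip of 0.41 was near the margin. Both promoters hold the letters TGCGCTC, the core of the metal response element, set in capitals in the RefSeq windows (build GRCm38.p6, plus strand, 250 bases before to 50 after the start) at chr8:94178839-94179138 for Mt1 and chr8:94172368-94172667 for Mt2. They are shown because the same motif, on either strand, was found in 4 of the 51 member genes with a window (7.84%), the others being H1f2 and Mblac2, and in 4.31% of 27025 genes.
Mt1: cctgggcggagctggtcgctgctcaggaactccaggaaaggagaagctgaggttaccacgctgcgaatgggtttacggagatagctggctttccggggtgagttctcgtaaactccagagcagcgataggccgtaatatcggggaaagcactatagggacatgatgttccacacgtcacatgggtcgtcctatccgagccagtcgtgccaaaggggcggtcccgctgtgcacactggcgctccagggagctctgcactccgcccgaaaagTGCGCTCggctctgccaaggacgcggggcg
Mt2: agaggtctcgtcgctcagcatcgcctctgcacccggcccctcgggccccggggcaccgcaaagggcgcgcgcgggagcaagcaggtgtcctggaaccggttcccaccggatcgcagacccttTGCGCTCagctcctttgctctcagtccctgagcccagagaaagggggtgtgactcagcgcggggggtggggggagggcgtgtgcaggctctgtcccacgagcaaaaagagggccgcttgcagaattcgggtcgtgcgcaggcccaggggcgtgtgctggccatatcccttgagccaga

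Dpep1, a membrane dipeptidase that takes part in glutathione breakdown, measured 7.40, 7.66 and 7.37 at 24 hours, 6.59, 6.99 and 6.99 at 7 days, and 8.24, 8.50 and 8.21 at 10 weeks. Sult1a1, which attaches sulfate to phenols, measured 7.28, 7.62 and 7.27 at 24 hours, 7.05, 6.66 and 6.87 at 7 days, and 8.08, 7.93 and 7.71 at 10 weeks. Both rose at 10 weeks relative to 24 hours, by 0.84 ± 0.13 and 0.52 ± 0.13 (adjusted p = 0.000354 and 0.00905). In all 7 genes of this set 24-hour replicate 2 was the highest newborn array. Of 19 metallothionein and antioxidant genes tested, 3 were members (Mt1, Mt2 and Gstm1), and 4 of the other 16 (25%) had their lowest mean at 7 days.

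Zbtb16, Klf15, Per1 and Pik3ip1 are regulators known to respond to steroid hormone, the clock or feeding, and 2 of them were higher, 1 lower and 1 not past the threshold at 10 weeks against 24 hours. Zbtb16, a zinc finger repressor induced by glucocorticoids, measured 7.25, 8.04 and 6.67 at 24 hours, 6.47, 6.27 and 6.25 at 7 days, and 8.15, 8.37 and 7.86 at 10 weeks. The newborn arrays spread widely (SD 0.69) and overlapped the adult ones, and the difference of 0.81 ± 0.27 passed the threshold by little (adjusted p = 0.0377). It did not pass when 24-hour replicate 3 was left out (difference 0.48, adjusted p = 0.126), nor under 8 further alternatives (adjusted p 0.000916 to 0.128 over 18 alternatives). Klf15, a Krüppel-like factor of heart and liver, measured 6.93, 7.30 and 6.78 at 24 hours, 6.57, 6.26 and 6.46 at 7 days, and 7.81, 8.18 and 7.78 at 10 weeks. All adult arrays lay above all newborn ones (difference 0.92 ± 0.15, adjusted p = 0.000524). In both genes replicate 2 was the highest array at 24 hours and again at 10 weeks.

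Per1, a repressor in the circadian clock that glucocorticoids also induce, measured 7.83, 7.53 and 7.71 at 24 hours, 6.66, 6.88 and 6.72 at 7 days, and 7.37, 7.34 and 7.38 at 10 weeks. The adult arrays were nearly equal (SD 0.02) and lay below the newborn ones. The gene fell by 0.33 at 10 weeks relative to 24 hours (SE 0.08, adjusted p = 0.00969), a call that was lost with quantile normalization (adjusted p = 0.0668, 0.00341 to 0.0668 over 18 alternatives). Per1 was the only clock gene of the group, and of the other 18 clock genes tested 2 (11.1%) had their lowest mean at 7 days. Dbp, a clock output factor, measured 7.70, 7.35 and 7.80 at 24 hours, 7.93, 7.88 and 7.84 at 7 days, and 9.18, 9.06 and 8.99 at 10 weeks. Nr1d1, the repressor Rev-erb alpha, measured 7.86, 7.77 and 7.98 at 24 hours, 7.79, 7.96 and 7.84 at 7 days, and 9.82, 9.59 and 9.96 at 10 weeks. Neither was called between 7 days and 24 hours (adjusted p = 0.163 and 0.983). Pik3ip1, an inhibitor of phosphoinositide 3-kinase whose expression rises on fasting, dipped by 0.70 and did not pass the threshold between the outer ages (difference -0.01 ± 0.11, adjusted p = 0.960). Of 22 fasting and FOXO-responsive genes tested, Klf15 and Pik3ip1 were members, and 4 of the other 20 (20%) had their lowest mean at 7 days.

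The promoters of Per1 and Klf15 are shown because both hold the E-box CACGTG, which the clock factors CLOCK and BMAL1 bind. Of 51 member genes with a window only Klf15, Per1 and Pnpla7 hold it (5.88%), against 8.09% of all 27025 genes with a window. The windows lie at chr11:69098699-69098998 for Per1 and chr6:90462326-90462625 for Klf15, both on the plus strand of GRCm38.p6, with the E-box in capitals. Per1 has a second start in the table, whose window holds no E-box.
Per1: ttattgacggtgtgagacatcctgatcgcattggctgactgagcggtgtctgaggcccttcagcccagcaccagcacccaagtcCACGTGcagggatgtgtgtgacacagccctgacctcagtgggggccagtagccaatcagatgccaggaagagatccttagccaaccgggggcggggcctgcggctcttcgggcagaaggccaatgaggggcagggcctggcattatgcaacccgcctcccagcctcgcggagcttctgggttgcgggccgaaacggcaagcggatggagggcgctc
Klf15: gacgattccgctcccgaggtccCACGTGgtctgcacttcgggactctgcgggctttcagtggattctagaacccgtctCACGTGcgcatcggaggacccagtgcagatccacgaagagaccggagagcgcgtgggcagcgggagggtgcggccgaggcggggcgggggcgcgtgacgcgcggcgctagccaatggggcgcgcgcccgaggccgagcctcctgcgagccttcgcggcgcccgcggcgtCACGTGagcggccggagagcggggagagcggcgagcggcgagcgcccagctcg

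A list of 30 glucocorticoid-responsive genes, of which 29 were tested, holds 8 of the 67 genes: Per1, Zbtb16, Klf15, Mt1, Mt2, Lcn2, Glul and Sult1a1. These 8 were chosen for being lowest at 7 days, so the list is described by its other 21 genes; it was written with earlier results of these data known. In 10 of the 21 (47.6%) the 7-day mean was the lowest of the ages, against 30.4% of the 19871 genes outside the group. Of the 21, 2 were called lower and 3 higher at 7 days than at 24 hours, where 4.81% and 5.27% of all genes were, with a median difference of -0.07 against 0.00. At 10 weeks 7 were called higher and 2 lower than at 7 days, where 17% and 18.9% of all genes were, with a median difference of 0.17 against 0.04. Fkbp5, a co-chaperone of the glucocorticoid receptor, named here after its values were seen, measured 6.66, 7.28 and 6.58 at 24 hours, 6.01, 5.83 and 6.03 at 7 days, and 6.00, 6.70 and 6.09 at 10 weeks. It fell at 7 days relative to 24 hours by 0.89 (adjusted p = 0.0229) but did not come back by the margin at 10 weeks (difference 0.31, adjusted p = 0.277). Hif3a, a hypoxia-inducible factor subunit, measured 5.82, 6.50 and 5.26 at 24 hours, 4.25, 4.39 and 4.09 at 7 days, and 4.14, 4.23 and 3.90 at 10 weeks, and so stayed low.

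Other genes of the list took other courses. Angptl4, an inhibitor of lipoprotein lipase, differed by -0.15 between 7 days and 24 hours and fell by 2.67 at 10 weeks relative to 7 days. Bcl6, a repressor, and Lpin1, a phosphatidate phosphatase, rose at both steps, Bcl6 by 0.63 and 1.62 and Lpin1 by 0.34 and 1.57. Arrays of 1 age moved together in this list: 24-hour replicate 2 was the highest newborn array in 20 of 29 genes (69%, against 28.7% of all genes), and 10-week replicate 2 was the highest adult array in 17 of 29 (58.6%, against 31.4%). The part of these arrays in the values of the list was not tested.

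The core of the glucocorticoid response element, ACANNNTGT on either strand, was found in 7 of 51 member genes with a window (13.7%). Among all 27025 genes with a window the share was 7.90%. The 7 member genes were Bckdhb, Glul, Ivd, Lcn2, Mt1, Serpina3n and Xk. The Lcn2 window, chr2:32387690-32387989 on the minus strand of GRCm38.p6, is shown as an example, with the match in capitals. A match of so few letters is a description of the sequence and says nothing of binding, and the table holds no window for Zbtb16.
Lcn2: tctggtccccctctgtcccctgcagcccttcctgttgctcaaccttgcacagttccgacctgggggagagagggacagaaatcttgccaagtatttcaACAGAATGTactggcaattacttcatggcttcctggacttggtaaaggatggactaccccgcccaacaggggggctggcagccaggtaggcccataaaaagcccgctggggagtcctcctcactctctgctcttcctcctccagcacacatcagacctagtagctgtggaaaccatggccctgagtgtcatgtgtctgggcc

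Breakdown of branched-chain amino acids was represented by 6 enzymes or their regulators, and all 6 were called higher at 10 weeks than at 24 hours, with no overlap between arrays (such a rise without overlap was found in 32.8% of genes above the floor). Bcat2, the mitochondrial transaminase that takes the first step for leucine, isoleucine and valine, measured 7.33, 7.43 and 7.45 at 24 hours, 6.99, 7.00 and 7.02 at 7 days, and 8.29, 8.27 and 8.04 at 10 weeks. Bckdhb, a subunit of the dehydrogenase complex that takes the second, measured 7.26, 7.47 and 7.42 at 24 hours, 6.47, 7.20 and 6.82 at 7 days, and 7.89, 8.08 and 7.88 at 10 weeks. Ppm1k, the phosphatase that activates this complex, measured 7.83, 7.86 and 7.85 at 24 hours, 7.51, 7.33 and 7.35 at 7 days, and 9.08, 8.84 and 9.05 at 10 weeks. The 7-day arrays of Bcat2 lay close together (SD 0.02), whereas those of Bckdhb spread (SD 0.36) and came within 0.07 of the newborn arrays. The rises at 10 weeks relative to 24 hours were 0.80 ± 0.07 for Bcat2, 0.57 ± 0.15 for Bckdhb and 1.14 ± 0.07 for Ppm1k (adjusted p = 8.95e-06, 0.0119 and 8.07e-07). Without 24-hour replicate 1 the call of Bckdhb was lost (adjusted p = 0.0515, 0.00107 to 0.0515 over 18 alternatives).

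The next enzymes serve single amino acids. Ivd, isovaleryl-CoA dehydrogenase of the leucine branch, measured 8.71, 8.69 and 8.70 at 24 hours, 8.09, 8.21 and 8.38 at 7 days, and 10.23, 9.95 and 10.06 at 10 weeks. Mccc1, a subunit of the next enzyme of that branch, measured 8.23, 8.30 and 8.24 at 24 hours, 7.79, 7.85 and 7.88 at 7 days, and 8.77, 8.79 and 8.73 at 10 weeks. Aldh6a1, which acts late in the valine branch, measured 9.46, 9.53 and 9.34 at 24 hours, 8.743, 8.998 and 8.746 at 7 days, and 10.13, 10.12 and 10.14 at 10 weeks. In each the ages did not overlap, and the dips of the 6 genes, 0.40 to 0.61, were shallow beside their later rises of 0.92 to 1.85 (10-week minus 7-day). Ivd rose by 1.37 ± 0.09 at 10 weeks relative to 24 hours, Mccc1 by 0.51 ± 0.05 and Aldh6a1 by 0.69 ± 0.07 (adjusted p = 5.14e-07, 1.70e-05 and 3.23e-05).

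A list of the pathway written after the members were known holds 25 tested genes, 7 of them members (Klf15 included). Of the other 18, 13 (72.2%) had their lowest mean at 7 days, against 30.4% of genes outside the group. Their median 7-day minus 24-hour difference was -0.11, against 0.00 over all genes, and their median 10-week minus 7-day difference was 0.56 against 0.04. Dbt, another subunit of the dehydrogenase complex, differed by -0.23 and 1.05 at the 2 steps, Bckdha by -0.11 and 1.71 and Mccc2 by -0.13 and 1.23. Dld, the subunit that the complex shares with other dehydrogenases, differed by -0.01 and 0.04, and Bcat1, the cytosolic transaminase, by 0.23 and -0.39. No test of the list was made, because it was written with the members in view.

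**Figure D4:**
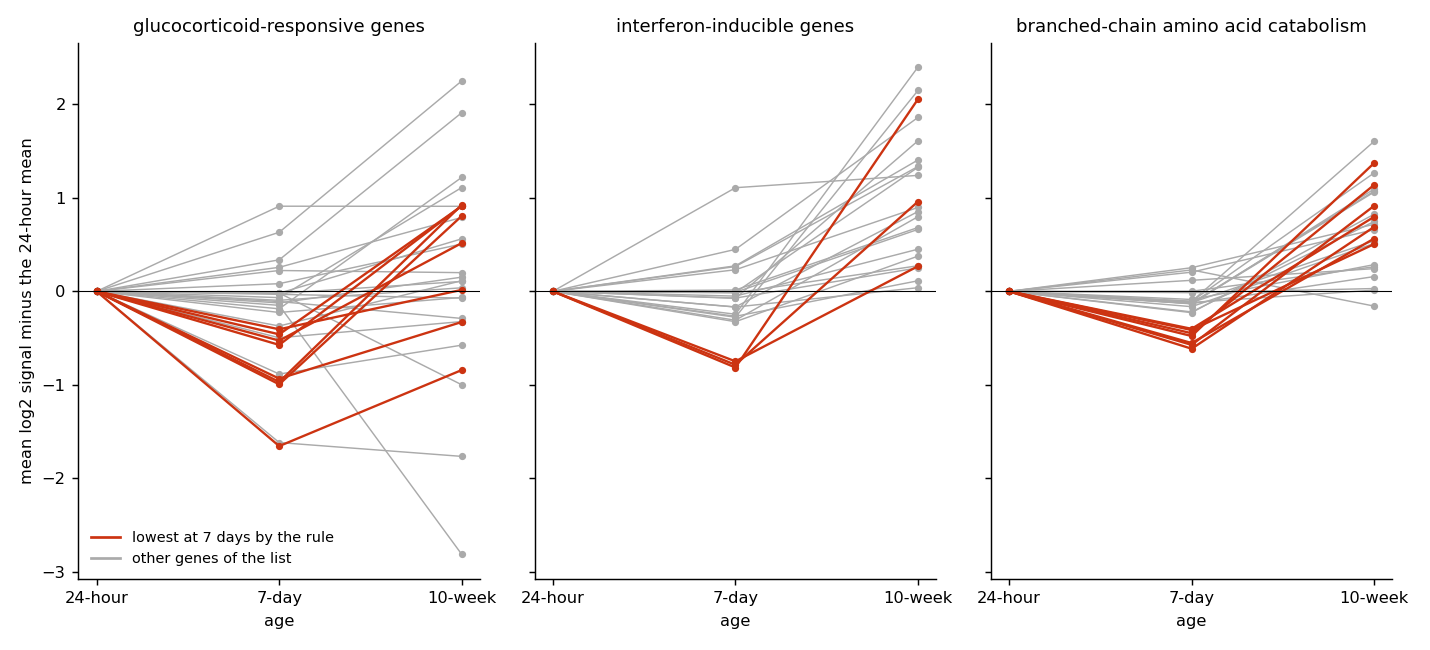
The mean log2 signal of each gene minus its 24-hour mean (vertical axis) is drawn against age for the tested genes of 3 lists, 29 glucocorticoid-responsive, 22 interferon-inducible and 25 of branched-chain amino acid catabolism, with the genes of the group in red and the others in grey. Of the grey lines 10 of 21, 13 of 19 and 13 of 18 have their lowest mean at 7 days, and most grey lines are within 0.5 of the newborn level at that age.

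Glul and 5 further enzymes act on other amino acids or on gamma-aminobutyrate (GABA), and 4 of these 6 genes were higher at 10 weeks than at 24 hours, 1 was lower and 1 did not pass the threshold. Kyat3, an aminotransferase that acts on kynurenine and glutamine, had the second deepest dip of the group, with 6.69, 6.80 and 6.76 at 24 hours, 5.57, 5.85 and 5.52 at 7 days, and 7.72, 7.66 and 7.78 at 10 weeks. Its arrays were close within each age, and the rise at 10 weeks relative to 24 hours was 0.97 ± 0.09 (adjusted p = 7.12e-06). Glul, glutamine synthetase, measured 9.01, 9.54 and 9.03 at 24 hours, 8.76, 8.83 and 8.61 at 7 days, and 10.04, 10.27 and 10.01 at 10 weeks. Its highest newborn and highest adult arrays were both replicate 2, and it rose by 0.91 ± 0.13 at 10 weeks relative to 24 hours (adjusted p = 0.000271). Aldh4a1, which completes proline breakdown, measured 6.07, 6.17 and 6.09 at 24 hours, 5.34, 5.90 and 5.71 at 7 days, and 7.76, 7.65 and 7.48 at 10 weeks, a rise of 1.52 ± 0.13 at 10 weeks relative to 24 hours (adjusted p = 4.67e-06).

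Abat, the transaminase that degrades GABA, measured 7.34, 7.35 and 7.32 at 24 hours, 6.30, 6.73 and 6.58 at 7 days, and 8.16, 8.16 and 8.15 at 10 weeks. Aldh5a1, which oxidises the semialdehyde product of Abat to succinate, measured 7.52, 7.49 and 7.67 at 24 hours, 6.87, 6.72 and 6.86 at 7 days, and 7.30, 7.30 and 7.36 at 10 weeks. Adhfe1, which oxidises the related gamma-hydroxybutyrate, measured 9.82, 9.79 and 9.80 at 24 hours, 8.98, 9.08 and 8.85 at 7 days, and 9.64, 9.62 and 9.81 at 10 weeks. These 3 enzymes of adjoining reactions dipped by 0.80, 0.50 and 0.72 and parted in the adult. Abat was higher at 10 weeks than at 24 hours (0.82 ± 0.09, adjusted p = 4.09e-05), Aldh5a1 was lower (-0.24 ± 0.07, adjusted p = 0.0158) and Adhfe1 did not pass the threshold (-0.11 ± 0.07, adjusted p = 0.244). Of 10 genes of GABA and related aldehyde oxidation tested, listed after the members were known, 4 are members, and 3 of the other 6 had their lowest mean at 7 days. The call of Aldh5a1 was lost with quantile normalization (adjusted p = 0.180, the highest over 18 alternatives) and without 24-hour replicate 3 (adjusted p = 0.0641).

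Of 9 genes of glycogen, pyruvate, ketone and energy metabolism, 5 were higher at 10 weeks than at 24 hours and 4 did not pass the threshold. Gys1, the glycogen synthase of muscle, measured 8.73, 8.87 and 8.94 at 24 hours, 8.12, 8.29 and 8.27 at 7 days, and 8.58, 8.79 and 8.58 at 10 weeks. Gbe1, which makes the branches of glycogen, measured 8.67, 8.77 and 8.67 at 24 hours, 7.88, 8.05 and 7.96 at 7 days, and 8.35, 8.48 and 8.70 at 10 weeks. Pygb, a phosphorylase that releases glucose units from it, measured 10.36, 10.32 and 10.32 at 24 hours, 9.90, 9.86 and 9.89 at 7 days, and 10.73, 10.45 and 10.71 at 10 weeks. Gys1 and Gbe1 act in synthesis and Pygb in breakdown, and the rule chose all 3 for being lowest at 7 days. Pygb was higher at 10 weeks than at 24 hours (0.30 ± 0.07, adjusted p = 0.00532), while Gys1 (-0.20 ± 0.08, adjusted p = 0.0754) and Gbe1 (-0.19 ± 0.09, adjusted p = 0.105) overlapped between the outer ages. Of 24 genes of glycogen metabolism tested, listed after the members were known, 3 are members, and 6 of the other 21 (28.6%) had their lowest mean at 7 days, against 30.4% of genes outside the group. Gyg, the primer of glycogen chains, differed by -1.07 at the first step and 0.18 at the second.

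The largest rises at 10 weeks relative to 24 hours belonged to genes that were dim in the young heart. Bdh1, which oxidises the ketone body beta-hydroxybutyrate, measured 4.86, 4.93 and 4.99 at 24 hours, 4.62, 4.54 and 4.25 at 7 days, and 8.47, 8.27 and 8.02 at 10 weeks. Xdh, the xanthine oxidoreductase that makes urate from purines, measured 5.37, 5.42 and 5.07 at 24 hours, 4.61, 4.74 and 4.63 at 7 days, and 8.36, 8.10 and 8.32 at 10 weeks. At 10 weeks Bdh1 was 10.0-fold and Xdh 7.82-fold higher than at 24 hours (differences 3.33 ± 0.12 and 2.97 ± 0.10, adjusted p = 1.63e-08 and 1.17e-08). Their younger signals lay below the median gene (5.57), as did the 7-day means of 8 of the 67 genes, and there a difference can be understated. Pdk1, a kinase that shuts off pyruvate dehydrogenase, dipped by 0.42 and was the only member among 23 hypoxia-inducible genes. Of the other 22, 6 (27.3%) had their lowest mean at 7 days. Among these 6 was Slc2a1, which met every condition on values and was dropped by name, with differences of -0.99 and 0.59 at the 2 steps. Suclg2, a subunit of succinyl-CoA ligase, and Esrrg, a nuclear receptor of mitochondrial genes, dipped by 0.51 and 0.48 and were slightly higher at 10 weeks than at 24 hours (0.22 ± 0.05 and 0.23 ± 0.08, adjusted p = 0.00403 and 0.0365). The call of Esrrg was lost under 7 of 18 alternatives (adjusted p 0.00828 to 0.126). Pnpla7, a lysophospholipase, dipped by 0.53 and did not pass the threshold between the outer ages, and nor did Pdk1 (adjusted p = 0.652 and 0.446).

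Genes of heart muscle and its membranes made up a set of 9, of which 6 were higher at 10 weeks than at 24 hours, 1 lower and 2 not past the threshold. Lrrc10, a leucine-rich repeat protein of heart muscle, had the deepest dip of these, with 8.90, 9.29 and 9.03 at 24 hours, 8.37, 7.95 and 8.23 at 7 days, and 9.42, 9.71 and 9.43 at 10 weeks. The adult arrays lay just above the newborn ones (0.45 ± 0.13, adjusted p = 0.0190), and the call was lost when 24-hour replicate 1 or 3 or 10-week replicate 2 was left out (adjusted p = 0.0815, 0.0628 and 0.0775, with 0.00965 to 0.0815 over 18 alternatives). Sh3rf2, a scaffold protein with SH3 domains, measured 5.74, 5.97 and 5.64 at 24 hours, 5.34, 5.41 and 5.27 at 7 days, and 7.59, 7.68 and 7.63 at 10 weeks. Its main change was the 3.61-fold rise at 10 weeks relative to 24 hours (1.85 ± 0.09, adjusted p = 6.21e-08), with a dip of 0.44. Popdc3, a membrane protein of the Popeye family that binds cyclic AMP, measured 8.03, 8.25 and 8.19 at 24 hours, 7.32, 7.19 and 7.43 at 7 days, and 7.71, 7.73 and 7.80 at 10 weeks. It was lower at 10 weeks than at 24 hours (-0.41 ± 0.08, adjusted p = 0.00147).

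Tecrl, a protein of the endoplasmic reticulum of heart muscle whose loss in humans is linked to arrhythmia, measured 8.995, 9.096 and 8.930 at 24 hours, 8.63, 8.39 and 8.57 at 7 days, and 9.60, 9.56 and 9.77 at 10 weeks. It rose by 0.64 ± 0.08 at 10 weeks relative to 24 hours (adjusted p = 8.90e-05). Asb11, an adaptor of ubiquitin ligases, the kelch protein gene Klhl38 and the alpha-kinase gene Alpk2 dipped by 0.47, 0.50 and 0.51. They were higher at 10 weeks than at 24 hours by 0.75 ± 0.12, 0.47 ± 0.06 and 0.30 ± 0.09 (adjusted p = 0.000605, 0.000173 and 0.0171). The call of Alpk2 was lost under 4 of 18 alternatives (adjusted p 0.00194 to 0.0676). Ehd3, which shapes membranes for recycling of surface proteins, and Xk, a membrane protein of the Kell blood group complex, dipped by 0.44 and 0.43 and did not pass the threshold between the outer ages (adjusted p = 0.890 and 0.152). In all 9 genes 24-hour replicate 2 was the highest newborn array. None of 27 ion channel and calcium handling genes tested was a member, and 7 of them (25.9%) had their lowest mean at 7 days. None of 20 fetal and stress genes of the cardiomyocyte tested was a member, and 6 of them (30%) had their lowest mean at 7 days. Among these 6 was Myh7, which met every condition on values and was dropped by name. It differed by -3.09 at the first step and 1.85 at the second.

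The 7 interferon-responsive genes had a median dip of 0.75, and 5 were higher at 10 weeks than at 24 hours while 2 did not pass the threshold. Ifit1, an antiviral protein that binds foreign RNA, measured 5.57, 5.18 and 5.01 at 24 hours, 4.16, 4.52 and 4.63 at 7 days, and 7.33, 6.92 and 7.68 at 10 weeks. Irf7, the transcription factor that drives interferon production, measured 5.85, 5.88 and 5.96 at 24 hours, 5.005, 5.009 and 5.320 at 7 days, and 6.91, 6.51 and 7.16 at 10 weeks. Ifi207, a protein of the family that senses DNA, measured 6.89, 6.89 and 6.73 at 24 hours, 6.22, 6.36 and 6.48 at 7 days, and 8.99, 9.06 and 9.27 at 10 weeks. In all 3 the ages stood apart, with the adult highest. The rises at 10 weeks relative to 24 hours were 4.16-fold for Ifit1, 1.95-fold for Irf7 and 4.83-fold for Ifi207 (differences 2.06 ± 0.20, 0.96 ± 0.15 and 2.27 ± 0.09, adjusted p = 1.48e-05, 0.000375 and 2.66e-08).

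Rtp4, a chaperone of membrane receptors that interferon induces, measured 6.50, 6.46 and 6.58 at 24 hours, 5.68, 5.35 and 5.96 at 7 days, and 7.25, 6.74 and 7.45 at 10 weeks. Its difference of 0.64 ± 0.18 between 10 weeks and 24 hours passed the threshold (adjusted p = 0.0172), a call that was lost when 24-hour replicate 1 or 2 or 10-week replicate 1 or 3 was left out (adjusted p = 0.0523, 0.0566, 0.0630 and 0.0654, with 0.00193 to 0.0654 over 18 alternatives). Ifi27l2a, a small membrane protein, was 2.93-fold higher at 10 weeks than at 24 hours (1.55 ± 0.10, adjusted p = 6.17e-07). Oasl2, an oligoadenylate synthase-like protein, and Lgals3bp, a secreted galectin-binding glycoprotein, overlapped between the outer ages (0.27 ± 0.13 and -0.24 ± 0.12, adjusted p = 0.138 and 0.151).

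On 7-day replicate 3 all 7 of these genes were higher than on the other 7-day arrays, and on 10-week replicate 3 the adult level was highest in 6 of 7. Of 22 interferon-inducible genes tested on a fixed list, Ifit1, Irf7 and Oasl2 were members. In 13 of the other 19 (68.4%) the mean was lowest at 7 days, against 30.4% of genes outside the group. For most the first step was small: the 19 that are not members had a median 7-day minus 24-hour difference of -0.05. Of these 19 genes 2 were called higher at that step, where 5.27% of all genes were. At 10 weeks 16 were called higher than at 7 days, where 17% of all genes were. Ifit3 differed by -0.25 and 2.65 at the 2 steps, Iigp1 by -0.28 and 2.43, Oas2 by -0.07 and 1.69 and Psmb8 by 0.45 and 1.41. Macrophage markers took another course: 0 of 10 had the lowest mean at 7 days, and their mean per array was 6.53 to 6.69 at 24 hours, 7.11 to 7.22 at 7 days and 7.96 to 8.14 at 10 weeks.

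The Ifit1 window, chr19:34640639-34640938 on the plus strand of GRCm38.p6, is shown because it holds 3 matches to GAAANNGAA, the core of the interferon-stimulated element, all read on the opposite strand and some of them overlapping. They are in capitals. The motif was added after the members were known. It was found in 6 of 51 member genes with a window (11.8%) and in 9.76% of all 27025 genes with a window. Of 5 interferon-responsive members with a window Ifit1 and Ifi207 hold it.
Ifit1: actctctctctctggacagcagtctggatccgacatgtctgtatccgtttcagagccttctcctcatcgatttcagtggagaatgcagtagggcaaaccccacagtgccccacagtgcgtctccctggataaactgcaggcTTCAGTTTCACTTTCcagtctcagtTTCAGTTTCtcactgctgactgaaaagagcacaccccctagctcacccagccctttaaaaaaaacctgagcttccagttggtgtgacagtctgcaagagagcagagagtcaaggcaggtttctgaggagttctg

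The last 12 genes have varied roles, and 6 of them were higher at 10 weeks than at 24 hours while 6 did not pass the threshold. Their dips ran from 0.41 to 0.59. Dnajc28, a member of the J-domain family of co-chaperones, had the largest rise at 10 weeks relative to 24 hours of these (1.00 ± 0.07, adjusted p = 1.99e-06), with 7.41, 7.37 and 7.34 at 24 hours, 7.11, 6.89 and 6.83 at 7 days, and 8.30, 8.40 and 8.41 at 10 weeks. Tmtc1, which adds mannose to cadherins in the endoplasmic reticulum, rose by 0.96 ± 0.12, and Dnajc12, another J-domain protein, by 0.51 ± 0.11 (adjusted p = 0.000103 and 0.00360). Mblac2 rose by 0.55 ± 0.08 and Bcap29, a protein of the endoplasmic reticulum, by 0.43 ± 0.10 (adjusted p = 0.000271 and 0.00589). Rbl2, the pocket protein p130 that holds back cell division, measured 7.81, 7.83 and 7.61 at 24 hours, 7.25, 7.37 and 7.15 at 7 days, and 7.98, 7.93 and 8.08 at 10 weeks. Its rise of 0.24 ± 0.08 (adjusted p = 0.0323) was lost without 24-hour replicate 3 or 10-week replicate 1 or 3 (adjusted p = 0.125, 0.0659 and 0.0938, with 0.00775 to 0.125 over 18 alternatives), and it was the only member among 18 p53 targets and cell cycle inhibitors tested.

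The 6 others did not pass the threshold, with 10-week minus 24-hour differences of -0.21 to 0.12 and adjusted p of 0.0804 to 0.825. They were C1qbp, a protein of the mitochondrial matrix, Dap3, a subunit of the mitochondrial ribosome, H1f2, a linker histone, Rab3ip, which activates the small GTPase Rab8, Ptges3l, and Dapp1, an adaptor that binds the lipid products of phosphoinositide 3-kinase. Rab3ip had narrow groups, with 9.17, 9.22 and 9.26 at 24 hours, 8.68, 8.71 and 8.76 at 7 days, and 9.27, 9.29 and 9.21 at 10 weeks, and H1f2 measured 8.23, 8.37 and 8.36 at 24 hours, 7.78, 7.69 and 7.71 at 7 days, and 8.44, 8.31 and 8.51 at 10 weeks. Among lists without any member, 2 of 27 immediate-early genes (7.41%), 3 of 23 genes of the amino acid and endoplasmic reticulum stress response (13%) and 6 of 21 genes of protein quality control and autophagy (28.6%) had their lowest mean at 7 days.

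**Figure D5:**
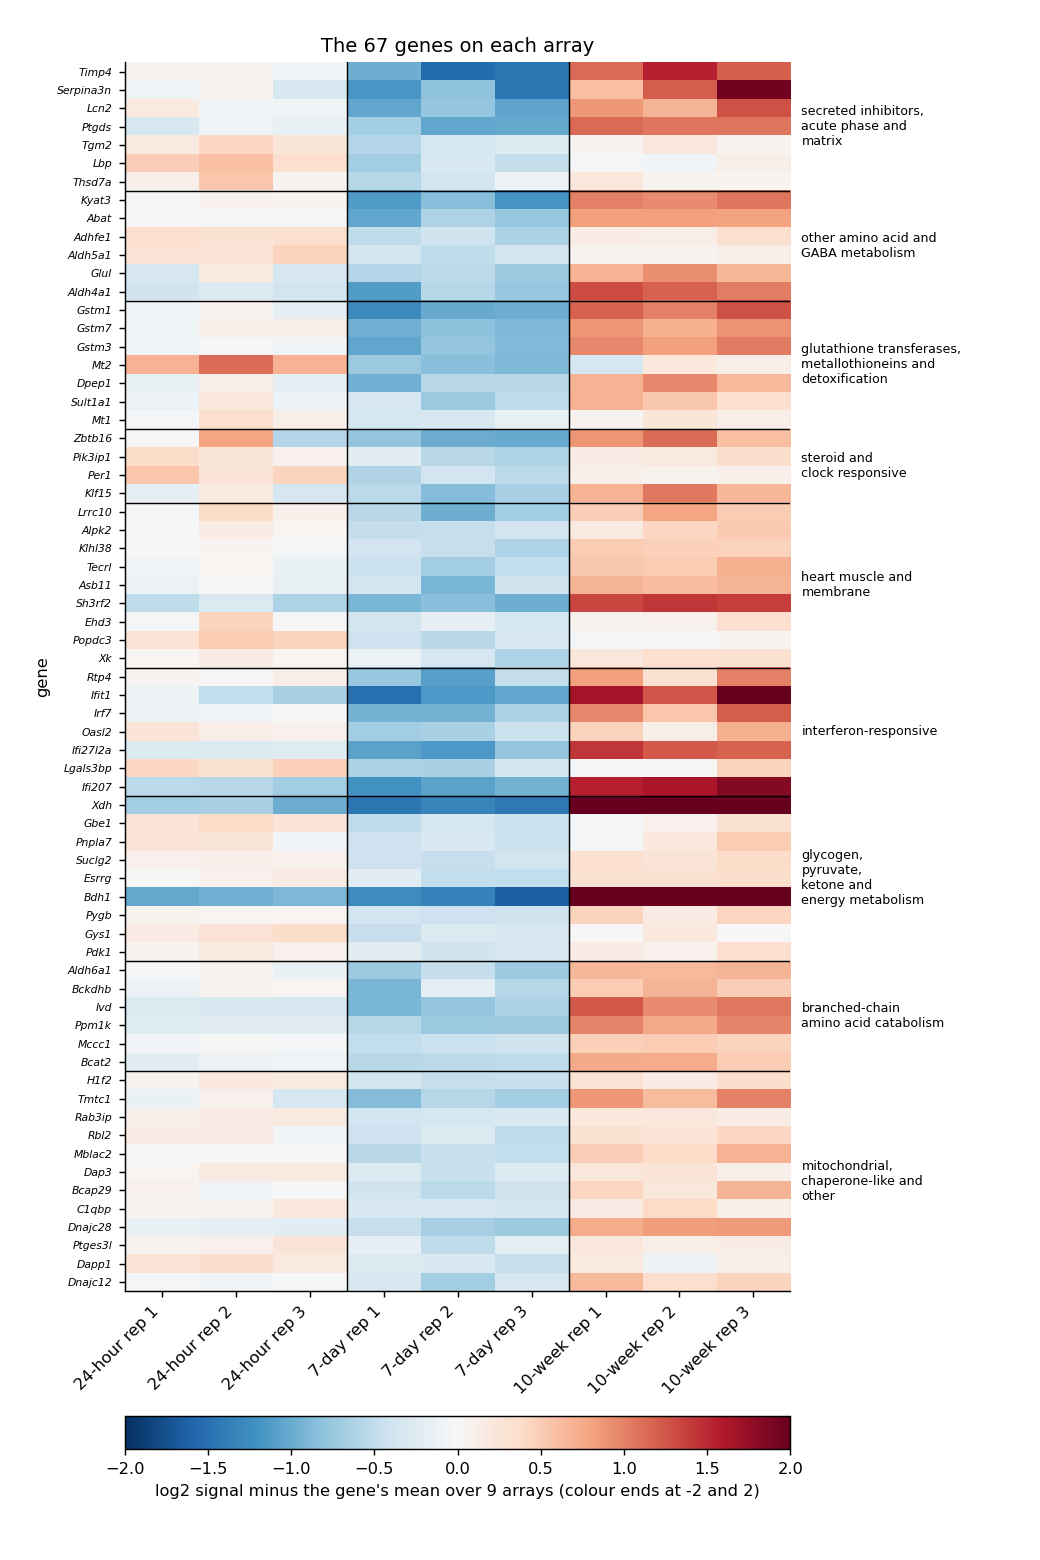
Each row is 1 of the 67 genes, grouped by role, and each column 1 array in order of age; colour gives the log2 signal minus the gene's mean over the 9 arrays, blue below and red above, with the scale ending at -2 and 2. The 3 columns at 7 days are blue for all 67 genes, and the darkest red at 10 weeks is that of Bdh1, Xdh, Ifit1 and Serpina3n.

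Probes that the rule did not use were available for 3 genes, whose second probe set also carries the gene's symbol alone. For Glul it gave -0.52 for 7-day minus 24-hour and 1.48 for 10-week minus 7-day, for Suclg2 -0.47 and 0.71, and for Gstm3, where it was dim, -0.24 and 0.62. All 3 had their lowest mean at 7 days. The second probe set of Gstm3 did not meet the rule. Its step of -0.24 was short of the margin and its 10-week mean of 4.74 was under the floor. On it 7-day replicate 3 (4.34) lay above 24-hour replicate 3 (4.31). The second probe sets of these 3 genes were not used by the rule. All of them read the same RNA and are no further replicates. Other neighbours on a chromosome were Ehd3 with Xdh, which are adjacent, Rab3ip with Lrrc10, with 1 protein-coding gene between them, and Tgm2 with Lbp, with 2 between them.

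Over all 67 genes 24-hour replicate 2 was the highest newborn array in 40 (59.7%), against 28.7% of all genes, and 10-week replicate 3 the highest adult array in 33 (49.3%), against 36%. Over the whole group 7-day replicates 1, 2 and 3 were the lowest in 28, 21 and 18 genes (41.8%, 31.3% and 26.9%, against 38.5%, 38.2% and 23.3% of all genes). Within sets the 7-day arrays differed. Replicate 3 was the highest in all 7 interferon-responsive genes. Replicate 1 was the lowest in 5 of 6 branched-chain genes and 5 of 7 detoxification genes, but the highest in 7 of the 12 genes of varied roles. On 24-hour replicate 2 Eif2s3y (7.71) was the highest and Xist (8.30) the lowest of the newborn arrays. What set this array apart was not tested. RefSeq promoter windows were found for 51 of the 67 genes, 62 windows in all. Their median share of G and C was 55% and their median number of CpG pairs 13, against 52.7% and 7 over 32851 windows. The GC box GGGCGG was found in 51% of member genes and 38.2% of all genes, the CCAAT box in 43.1% and 41.1%, the short glucocorticoid site AGAACA in 21.6% and 21.3%, the ROR element AGGTCA in 19.6% and 18.1%, and the hypoxia core GACGTG in 11.8% and 7.15%. The heat shock triplet GAANNTTC was found in 1.96% and 9.04%, TATAAA in 11.8% and 15.7%, the AP-1 site TGACTCA in 7.84% and 5.95%, the D-box TTATGTAA in 1.96% and 1.11%, and the cyclic AMP element TGACGTCA in none of the member genes and 2.03% of all genes. CTAAAAATA, a MEF2-like motif, was also found in none of them and in 0.588% of all genes. Each motif was searched on both strands, and these shares are descriptions of short windows. For motifs, all genes are the 27025 with a RefSeq window, whether measured here or not. The members had also passed a floor on adult signal, so the 2 sets are unlike.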

How the data were processed

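The authors deposited log2 intensities of 35556 features on 9 arrays, which ran from 1.85 to 13.58 and were used unchanged. The submitters' processing notes name MAS5 5.0, and how the authors summarised probes and normalised arrays is not given in the sources used here. Array medians lay within 0.05 of each other. Arrays have no read depth; their number limits the precision.

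Features with 1 gene symbol in the platform annotation were kept (21789), 21698 of them matched to current symbols by Entrez id through RefSeq (GRCm38.p6), and the feature with the highest mean was used per gene, which left 19938 genes. The fit over all arrays, with a mean for each age, used limma (3.58.1, under R 4.3.3) and eBayes with an intensity trend (6 residual degrees of freedom before moderation). P-values were adjusted by the Benjamini-Hochberg method over all genes, with calls made below 0.05. In simulated data of 19938 genes, 100 genes were changed by 0.5 and 100 by 1 (log2) in the 10-week against 24-hour comparison. Of these 80% and 97% were recovered, with 4.32% of calls false. In the real comparison 40.1% of genes were called, so the simulated shares need not hold there. Tables were made with Python 3.11.15, pandas 2.3.3 and numpy 2.4.6 and plots with matplotlib 3.10.9.

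The members and the gene lists were chosen with earlier results of these data known. Genes given with single-array values were the 12 deepest dips, the 6 highest 10-week means, the 5 largest rises and falls at 10 weeks against 24 hours, members of a fixed list, and members with a known heart, growth, stress or metabolic role; of each fixed list up to 4 others with the largest called difference could be named. Further lists and roles were written after the members were known. Promoter windows are those of RefSeq, from 250 bases before to 50 after a start. Alternatives covered the scaling, the choice of probe sets, the rule's margins, the variance model, the replicate number as a block, dim genes and leaving out arrays.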

Additional observations from a re-analysis of the deposited data

How the results depend on the processing

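The group depended on the margin of the rule: 133 genes passed at a margin of 0.3 and 24 at 0.6, all 24 among the 67. With each array left out in turn 61 to 79 genes passed, and without the pair of 7-day arrays that carry fat transcripts 99 did, of which 54 were among the 67. The counts under the other scalings, another choice of probe sets, other floors and no condition on overlap lay between 60 and 74. At 10 weeks against 24 hours the 43 members called higher stayed between 37 and 44 under all 18 alternatives. The 5 called lower became 3 with quantile normalization and were 4 to 7 with single arrays left out. Of the 48 members called, 39 kept the call under every alternative and none changed its direction. Signs turned only in members that were not called. Without single arrays the 10-week minus 24-hour differences ran from -0.0601 to 0.181 for Ehd3, -0.0686 to 0.108 for Mt1, -0.0827 to 0.0591 for Pik3ip1, -0.0567 to 0.210 for Pnpla7, -0.0074 to 0.0919 for Ptges3l and -0.2075 to 0.036 for Thsd7a. Mt1 gave -0.0081 when arrays were centred on their medians, and Pik3ip1 gave 0.0986 with quantile normalization.

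Over all genes the 2009 calls of 7 days against 24 hours became 1149 to 2316 without single arrays and 516 without the pair of 7-day arrays. The 7165 calls of 10 weeks against 7 days became 6124 to 7275 without single arrays and 4156 without that pair. These fits have fewer arrays. The replicate numbers do not pair the arrays: deviations of arrays with the same number correlated by -0.17 to 0.13. With the replicate number as a block 1734, 6916 and 7724 genes were called at 7 days against 24 hours, 10 weeks against 7 days and 10 weeks against 24 hours, and 42 members were higher and 7 lower at 10 weeks than at 24 hours. With 3 arrays per age and no detection flags, small differences of dim genes are the least certain.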
